A study of Mus musculus with 8 samples.

Results

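Expression of 10 genes of the Hedgehog pathway was examined in mouse neural progenitor cells: Shh, Ptch1, Smo, Gli1, Gli2, Gli3, Sufu, Hhip, Boc and Gas1. They were taken by symbol from a table of read counts for 32499 genes, and all 10 were found. The cells came from neural tubes of C57BL/6 embryos at embryonic day 14 and were sorted with NeuroFluor CDr3, a dye that binds the radial glia protein FABP7. There were 4 libraries labelled 53BP1 KO (KO below, by label) and 4 labelled Control. The KO embryos carried a Trp53bp1tm1Jc allele from the mother and a CRISPR in-frame deletion in 53bp1 from the father, and the control embryos were wild type. Both groups share strain, stage, tissue and sort, and the labels do not say whether a library came from a single embryo, or from cells taken before or after culture in differentiation medium. Nor do they say that replicates were separate embryos or cultures, so the p-values cover only library-to-library spread, possibly a technical one. The labels set KO against wild type for 53BP1, a DNA repair protein, and the sex of the libraries differs along with that label.

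Hedgehog proteins are secreted morphogens that pattern the ventral neural tube from the notochord and floor plate and later drive division of neural progenitors. In the absence of ligand the receptor PTCH1 holds back the membrane protein SMO. When ligand binds PTCH1, SMO moves into the primary cilium, SUFU releases the GLI transcription factors, and GLI activators take the place of GLI repressors. Ptch1, Gli1 and Hhip are themselves well-known targets of the active pathway, and their proteins feed back on it.

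Of the 10 genes, Hhip and Gas1 were higher and Gli3 was lower in the KO libraries. Hhip changed most, by 4.96-fold. Shh and Gli1 were barely detected in any library and were not tested. Ptch1, Smo, Gli2, Sufu and Boc did not pass the test. The share of all genes called was large in these data: 16.1% of the 15021 genes tested were called higher and 13.9% lower (30.0% in all) at an adjusted p under 0.05 by edgeR's quasi-likelihood test. Against that background 2 of the 8 members tested were called higher and 1 lower. For the same 3 genes the libraries of the groups did not overlap in level, against 29.9% of all genes tested (15.9% with the KO group higher and 13.9% with it lower). The median log2 fold change of the 8 members tested was 0.24, and that of all genes tested was 0.0011.

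Total counts per library were between 11081419 and 24339621, at which 3 counts correspond to between 0.126 and 0.261 CPM (counts per 1000000 of the TMM-adjusted library size). Trp53bp1 itself did not separate the groups, with 26.8 ± 0.349 CPM in controls and 27.1 ± 6.36 CPM in the KO libraries (SD, n = 4 each), and counts per gene do not resolve an in-frame deletion. Xist, the RNA that coats the silenced X in females, had 98416 counts in all controls together and 50 in all KO libraries together, and the Y-linked gene Ddx3y had 0 and 3439. Kdm6a, an X-linked gene that escapes X inactivation, fell from 39.5 ± 3.80 to 22.9 ± 3.67 CPM. Sex and genotype label therefore coincide in all 8 libraries and cannot be told apart. All 10 members lie on autosomes in the GRCm38 annotation. In these bulk samples fewer cells of a type and less RNA per cell cannot be told apart either. Control 4 stood apart from the other controls on the second principal component of all genes, and it is named below for some, not all, of the values it moves. Radial glia markers were present in every library, with Fabp7 between 6315 and 9392 CPM.

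The 250 bases before the annotated start of the 3 genes called are shown because these are the members whose level differed between the groups (RefSeq, GRCm38.p6; the counts were made on another assembly). Capitals mark the palindrome TGACGTCA, the consensus cAMP response element, and the CCAAT box, searched on both strands. Both were chosen after the sequences had been read. The window of Hhip is chr8:80058009-80058258, minus strand, that of Gas1 is chr13:60177536-60177785, minus strand and that of Gli3 is chr13:15463473-15463722, plus strand.
Hhip: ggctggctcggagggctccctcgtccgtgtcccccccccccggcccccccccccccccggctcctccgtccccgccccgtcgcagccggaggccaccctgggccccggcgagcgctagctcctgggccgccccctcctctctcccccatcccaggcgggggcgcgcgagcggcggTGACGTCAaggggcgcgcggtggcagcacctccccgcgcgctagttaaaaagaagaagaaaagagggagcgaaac
Gas1: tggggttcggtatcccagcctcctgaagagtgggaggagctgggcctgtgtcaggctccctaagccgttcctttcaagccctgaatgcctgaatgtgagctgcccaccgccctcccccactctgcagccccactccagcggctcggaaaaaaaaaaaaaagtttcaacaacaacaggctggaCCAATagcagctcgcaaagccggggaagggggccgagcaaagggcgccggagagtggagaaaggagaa
Gli3: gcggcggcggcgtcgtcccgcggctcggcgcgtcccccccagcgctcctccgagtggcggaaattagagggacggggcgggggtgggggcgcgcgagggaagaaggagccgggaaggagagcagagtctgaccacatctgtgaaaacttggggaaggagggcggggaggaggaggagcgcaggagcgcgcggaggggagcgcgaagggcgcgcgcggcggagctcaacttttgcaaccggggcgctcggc

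The palindrome began 75 bases before the start of Hhip. It was found in 1.55% of the 32851 promoter windows of 250 bases in the RefSeq table, and in 1 of the 7 windows of members, that of Hhip. The CCAAT box of Gas1 belongs to a common class, held by 33.8% of windows, and Sufu had it too. The GLI motif TGGGTGGTC was searched on both strands from 250 bases before to 50 after the start. It was in 0.253% of windows and in 0 of the 7 windows of members, which says only that these letters are not in these windows. Windows were found for Gas1, Gli2, Gli3, Hhip, Ptch1, Smo and Sufu. All 7 were above the median of all windows, 6.0 CpG dinucleotides and a GC content of 52.4%. Those of Hhip, Gas1 and Gli3 held 28, 10 and 34 CpG dinucleotides, and those of Ptch1, Gli2, Smo and Sufu, which were not called, held 41, 22, 15 and 8. GC content ran from 54.0% for Sufu to 78.4% for Ptch1. Whether any factor binds these windows was not measured here.

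**Figure D1:**
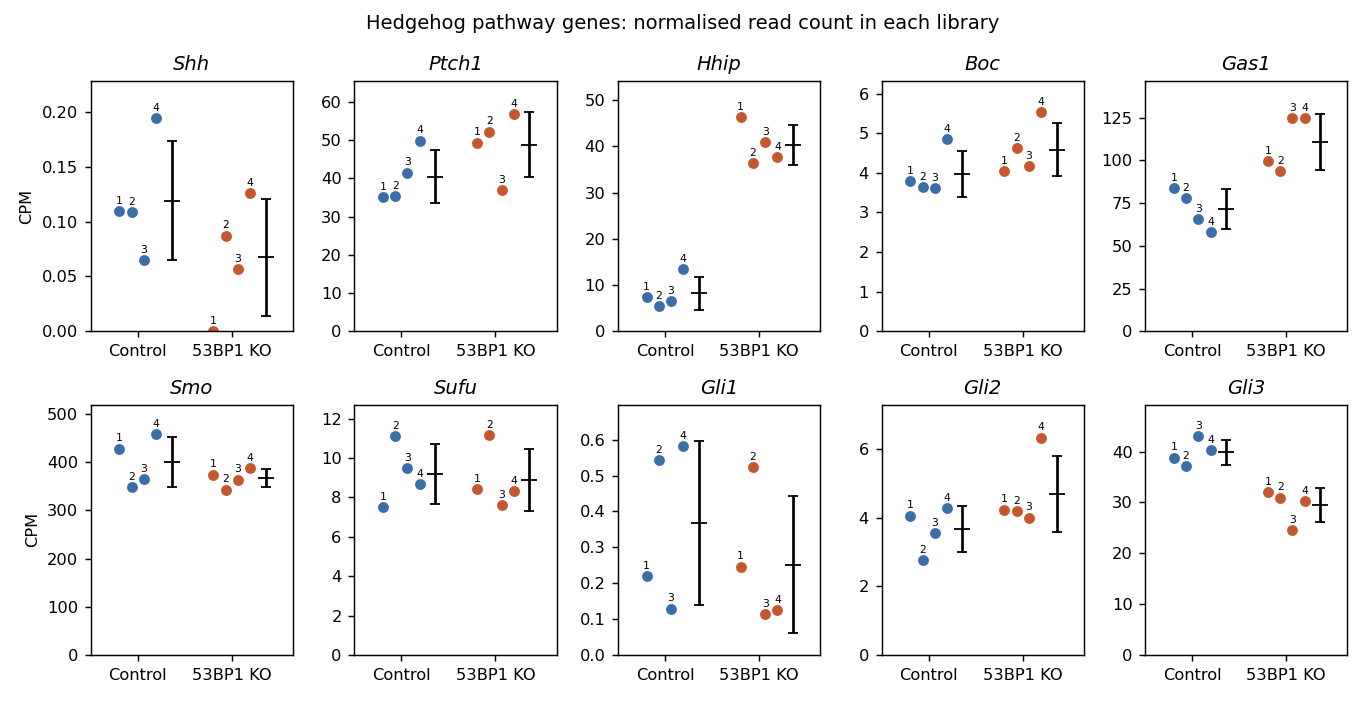
Normalised read count (CPM, from 0) of each of the 10 genes in the 4 control (blue) and 4 KO (orange) libraries, with replicate numbers beside the points and the mean ± SD of each group in black. Hhip and Gas1 separate upward and Gli3 downward, whereas Shh and Gli1 stay below 0.6 CPM in every library.

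Shh, the ligand made by notochord and floor plate, was near absent. It had 2, 2, 1 and 3 counts in controls 1 to 4 and 0, 1, 1 and 3 counts in KO 1 to 4. No library was above 3 counts, so no fold change is given. Floor plate and notochord transcription factors were similarly scarce, with Foxa2 at 11 counts in all controls together and 4 in all KO libraries. Spon1, a secreted floor plate protein that other cells make too, was abundant and rose from 623.7 ± 64.3 to 1139 ± 73.9 CPM (log2 fold change 0.87, edgeR adjusted p = 1.15e-05). Of the 10 markers of that list 7 were tested, and none was at 0 in every library. The summed level of the list was between 940.8 and 1098 CPM across controls and from 1407 to 1636 CPM in the KO libraries, most of it from Spon1 and Ntn1, a guidance cue.

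Dhh, another Hedgehog ligand and best known from Schwann cells and testis, was the ligand with an appreciable count. It had 22.4 to 68.5 CPM in controls and 13.2 to 17.0 CPM in the KO libraries, where it was lower (log2 fold change -1.77 with an SE of 0.26, edgeR adjusted p = 0.000137). The 22.4 CPM came from control 4. The groups did not overlap, and without control 4 the log2 fold change was -2.04. Hhat, which attaches palmitate to Hedgehog ligands, rose from 2.93 ± 0.241 to 5.14 ± 0.297 CPM (SD, n = 4; log2 fold change 0.81 with an SE of 0.16, edgeR adjusted p = 0.00165). Ihh had 24 counts in controls together and 20 in the KO libraries together and was not tested. Of the 8 genes for other ligands and ligand release, 7 were in the table and 5 were tested, of which Hhat was higher and Dhh lower.

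Ptch1, the receptor, had 35.1, 35.4, 41.5 and 49.9 CPM in controls 1 to 4 and 49.3, 52.2, 37.0 and 56.7 CPM in KO 1 to 4. The groups overlapped, because control 4 was high and KO 3 was low. The log2 fold change was 0.27 (95% interval -0.03 to 0.58, edgeR adjusted p = 0.168). The call depended on single libraries: without control 4 the log2 fold change of Ptch1 was 0.38 (adjusted p = 0.0371), and without KO 3 it was 0.38 (adjusted p = 0.0366). Ptch1 also passed with limma voom (0.38, adjusted p = 0.014), which was run throughout with quality weights that count a deviating library less. Ptch1 passed with no filter on low counts too (0.34, edgeR adjusted p = 0.0315). That fit takes little account of each gene's own spread, and the SE of Ptch1 was 0.12 in it against 0.14 in the main fit.

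Hhip encodes a membrane protein that binds Hedgehog ligands and keeps them from the receptor. It had 7.40, 5.48, 6.45 and 13.4 CPM in controls 1 to 4, from 135, 101, 100 and 207 counts. In KO 1 to 4 it had 46.3, 36.3, 40.9 and 37.7 CPM, from 940, 417, 725 and 900 counts. Every KO library was above every control, and control 4 was the highest control. The log2 fold change was 2.31 (95% interval from 1.85 to 2.76, SE 0.21, edgeR adjusted p = 2.23e-06), or 4.96-fold (3.61 to 6.80). Among the 15021 genes tested, 112 had a larger absolute log2 fold change. Without control 4 the value was 2.64, and over the libraries left out in turn it ran from 2.15 to 2.64 with every call kept.

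Gas1 and Boc are coreceptors that bind Hedgehog ligands together with Ptch1 and aid signalling. Gas1, a protein anchored to the membrane by a lipid, had 83.8, 77.9, 65.7 and 58.1 CPM in controls 1 to 4 and 99.6, 93.8, 125 and 125 CPM in KO 1 to 4. All KO libraries were above all controls. The log2 fold change was 0.64 (95% interval from 0.36 to 0.91, SE 0.13, edgeR adjusted p = 0.00195), a 1.55-fold rise. Boc, an immunoglobulin superfamily protein, had 3.78, 3.64, 3.61 and 4.85 CPM in controls and 4.03, 4.62, 4.17 and 5.53 CPM in the KO libraries. The groups overlapped through control 4 alone, and the log2 fold change of 0.22 did not pass (95% interval -0.16 to 0.59, edgeR adjusted p = 0.39). The third coreceptor, Cdon, had 45.7 ± 8.95 CPM in controls and 36.2 ± 4.62 CPM in the KO libraries and did not pass either (log2 fold change -0.34, edgeR adjusted p = 0.0739), although DESeq2 put it at an adjusted p of 0.0495. Its control 4 was high, at 59.1 CPM, and without that library the log2 fold change of Cdon was -0.20. The coreceptors thus had log2 fold changes of 0.64, 0.22 and -0.34, and whether these differ from one another was not tested.

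Smo, the signal transducer, had 428, 348, 364 and 458 CPM in controls and 374, 343, 364 and 387 CPM in the KO libraries. The groups overlapped in part, with KO 2 below every control and controls 1 and 4 above every KO library (log2 fold change -0.12, 95% interval -0.33 to 0.09, edgeR adjusted p = 0.384). Sufu, which binds GLI proteins and keeps them inactive, had 7.51, 11.1, 9.48 and 8.66 CPM in controls and 8.41, 11.2, 7.61 and 8.30 CPM in the KO libraries. Its log2 fold change was -0.07 (95% interval -0.40 to 0.27, edgeR adjusted p = 0.792). The 95% interval of the fold change, KO over control, ran from 0.794 to 1.06 for Smo and from 0.757 to 1.21 for Sufu.

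Of the 3 GLI factors, Gli3 was called, Gli2 did not pass and Gli1 was not tested. Gli1, an activator and the usual readout of pathway activity, had 4, 10, 2 and 9 counts in controls and 5, 6, 2 and 3 counts in the KO libraries. No library passed 0.6 CPM, and the groups overlapped. In the fit with no filter the log2 fold change of Gli1 was -0.55 (95% interval -2.16 to 1.06, edgeR adjusted p = 0.724). No difference in Gli1 was detected, but the interval is wide and holds both a rise and a fall. That fit also takes little account of each gene's own spread.

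Gli2, the main activator downstream of SMO, had 4.06, 2.77, 3.55 and 4.27 CPM in controls and 4.23, 4.18, 4.00 and 6.33 CPM in the KO libraries. KO 4 stood above the rest, and the other 3 lay within the range of the controls. The log2 fold change was 0.37 (95% interval -0.06 to 0.81, edgeR adjusted p = 0.191), and 0.17 without KO 4. With limma voom and its quality weights Gli2 passed (0.57, adjusted p = 0.0332).

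Gli3, the main repressor form in neural tissue, had 38.8, 37.2, 43.0 and 40.4 CPM in controls and 32.1, 30.9, 24.5 and 30.3 CPM in the KO libraries. Each KO library was below each control. The log2 fold change was -0.44 (95% interval from -0.66 to -0.21, SE 0.11, edgeR adjusted p = 0.00632), a 1.35-fold fall, and it ran from -0.47 to -0.36 with each library left out in turn, always called. A count of RNA does not tell the full-length protein from the processed repressor.

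**Figure D2:**
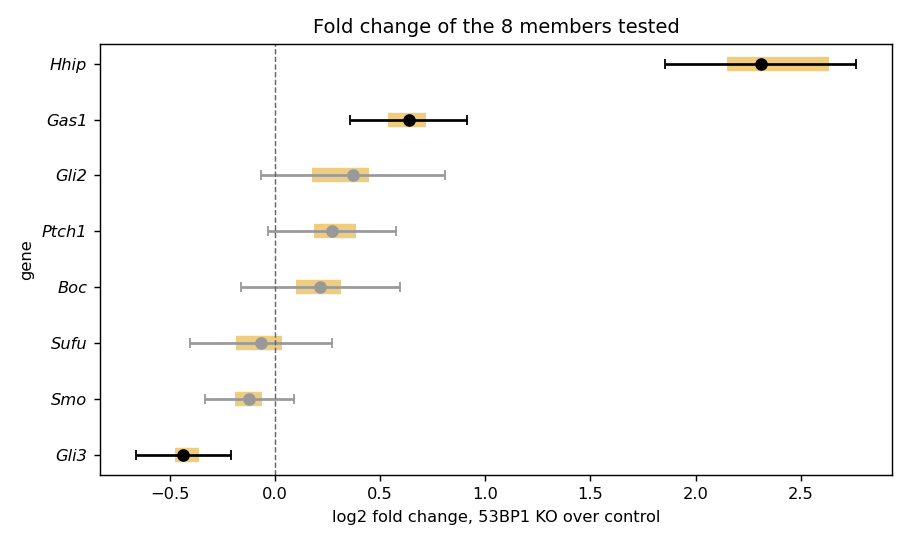
Log2 fold change of the 8 members tested (x axis, KO over control; point and 95% interval from edgeR), black where the adjusted p was under 0.05 and grey otherwise; the yellow bar is the range of the estimate when each library is left out in turn. Hhip, Gas1 and Gli3 have intervals clear of 0, and the bar of Sufu crosses 0.

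Ratios of genes counted in the same library do not depend on how libraries are scaled. The log2 ratio of Gli2 to Gli3 counts was -3.25, -3.73, -3.59 and -3.23 in controls 1 to 4 and -2.92, -2.87, -2.61 and -2.26 in KO 1 to 4. It was higher in all 4 KO libraries than in all 4 controls, by 0.79 on the log2 scale. A two-sided exact permutation test gave p = 0.0286, the smallest that 4 against 4 libraries can give, and an adjusted p of 0.0857 over the 3 ratios, so it does not pass. The log2 ratio of Ptch1 to Smo differed by 0.38 (exact permutation p = 0.114, adjusted p = 0.171), from -3.31 ± 0.21 in controls to -2.93 ± 0.262 in the KO libraries (SD, n = 4), with overlap. That of Gli1 to Gli3 differed by -0.09 (exact permutation p = 0.914, adjusted p = 0.914), and it rests on at most 10 counts of Gli1 in any library.

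To set the genes beside one another, CPM were divided by the merged exon length in GENCODE M21, which belongs to another assembly than the counts and is only approximate for them. In the controls Smo was highest with 71.1 ± 9.24 CPM per kb, followed by Gas1 with 24.1 ± 3.93 CPM per kb (SD, n = 4). Gli3 (4.15 ± 0.259) and Ptch1 (2.85 ± 0.488) came next, with no overlap between their libraries. Sufu (1.20), Hhip (0.901) and Boc (0.892) overlapped in their libraries and cannot be ordered, and Gli2 followed with 0.533, its highest library just above the lowest of Hhip. Gli1 (0.0737) and Shh (0.0419) were last and overlapped. In the KO libraries Hhip moved from sixth to the third place with 4.44 ± 0.485 CPM per kb, ahead of Ptch1 (3.44 ± 0.595) and Gli3 (3.07 ± 0.352), which overlapped there. Gli3 went from the third to the fifth place, and the remaining members kept their order among themselves. No test was made between genes.

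**Figure D3:**
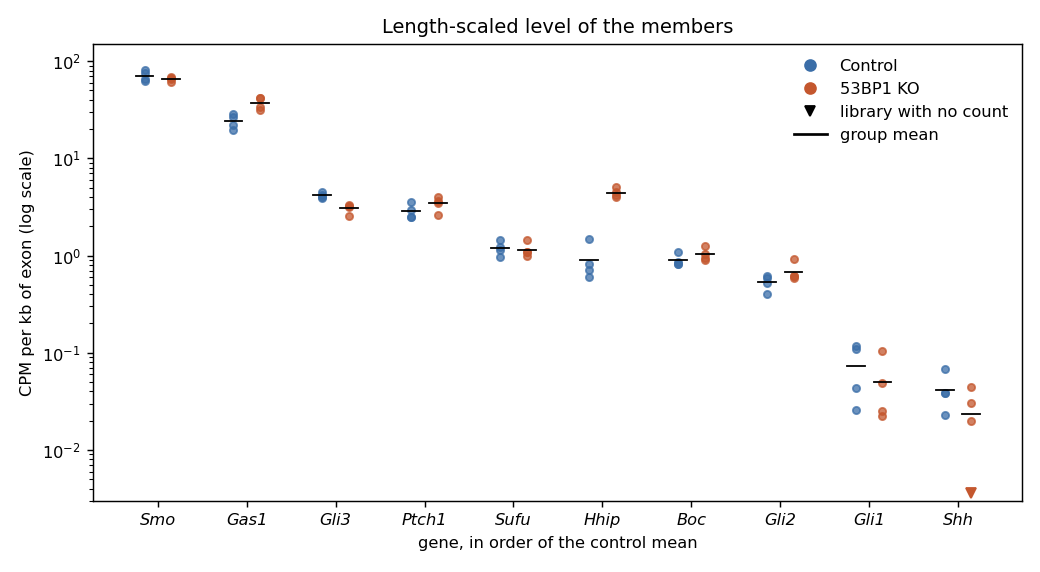
Level of each member in CPM per kb of merged exon (log axis), one point per library, blue for controls and orange for KO libraries, with black bars at the group means and a triangle for the library without a count. Smo and Gas1 lead in both groups, Hhip moves from the level of Sufu and Boc to that of Ptch1 and Gli3, and Gli1 and Shh lie far below the rest.

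Of the other pathway genes, 80 in 6 lists, 79 were in the table and 68 were tested; 16 were higher and 11 lower, against the 16.1% and 13.9% of all genes tested. Their median log2 fold change was -0.06. Lower calls numbered 7 without control 2, 7 without KO 1 and 5 without KO 4. Over all genes tested, lower calls went from 2087 in the main fit to 1740, 1596 and 1497 in these fits. Of 11 other genes of reception, 10 were tested and 1 was called: Evc, a ciliary protein that binds SMO, fell from 16.8 ± 1.19 to 11.9 ± 1.53 CPM (log2 fold change -0.50 with an SE of 0.12, edgeR adjusted p = 0.00631). Evc2, its partner, had a log2 fold change of 0.02 (adjusted p = 0.885). Lrp2, an endocytic receptor that binds SHH, had between 97.3 and 112 CPM in controls 1 to 3 and 317 in control 4. In the KO libraries Lrp2 had between 62.2 and 115 CPM. Its log2 fold change was -0.73 (edgeR adjusted p = 0.1) and -0.15 without control 4. With no filter on low counts Lrp2 was called lower (-0.65, edgeR adjusted p = 1.13e-07). In that fit the SE of Lrp2 was 0.111, close to the 0.108 of Smo, in spite of control 4. That p-value therefore does not measure the spread of Lrp2 between libraries.

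Among 16 genes that act on GLI proteins 4 were higher and 1 lower. Protein kinase A marks GLI proteins for processing into repressors. Prkaca, a catalytic subunit of it, fell from 296.6 ± 16.6 to 235 ± 7.28 CPM (log2 fold change -0.34 with an SE of 0.08, edgeR adjusted p = 0.00511). Of its other subunits in the list, Prkacb (-0.04, edgeR adjusted p = 0.844) and Prkar1a (-0.14, edgeR adjusted p = 0.337) did not pass. With no filter on low counts the call of Prkaca was lost (-0.27, adjusted p = 0.0723). Csnk1a1, a casein kinase that also acts on GLI proteins, rose from 619 ± 39.0 to 775 ± 62.4 CPM (log2 fold change 0.32, edgeR adjusted p = 0.0133). Its call was lost without KO 4 (0.28, edgeR adjusted p = 0.0616). Cul3, a scaffold of ubiquitin ligases (0.23, adjusted p = 0.0473), and Tulp3, a ciliary trafficking protein (0.36, adjusted p = 0.0365), also passed. Their calls were lost in 7 and 6 of the 8 fits with a library left out, and Tulp3 was at 0.24 without control 4. Zic1, a zinc finger factor related to the GLI family, had 10.2 to 22.3 CPM in controls and 24.0 to 32.8 CPM in the KO libraries (log2 fold change 0.61, adjusted p = 0.0276). The log2 fold change of Zic1 was 0.40 without control 4, and its call was lost without KO 2, 3 or 4 (0.61, 0.59 and 0.54, with adjusted p = 0.0558, 0.0647 and 0.0948).

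Of 14 genes of the primary cilium, where SMO acts, 4 were higher and 1 lower. Ift172, a subunit of the particle that carries cargo along the cilium, had 45.2, 44.8, 51.3 and 59.6 CPM in controls and 94.7, 90.9, 89.7 and 107 CPM in the KO libraries. The groups were well apart (log2 fold change 0.93 with an SE of 0.11, edgeR adjusted p = 1.89e-05). Ift81, of the same particle, rose by 0.53 (SE 0.10), Mks1, of the ciliary gate, by 0.57 (SE 0.11) and Kif3a, a motor subunit, by 0.44 (SE 0.10). Tmem67, of the same gate, was lower (-0.50, adjusted p = 0.0365), and its call was lost in 6 of the 8 fits with a library left out. Ift88 (-0.28), Ift122 (-0.01) and Ift52 (-0.01) did not pass. The median of the list was -0.01.

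Genes known to be induced by Hedgehog signalling in neural progenitors moved both ways, with 4 of 16 tested higher and 5 lower (Ccnd1, Foxm1, Nkx2-1, Ccnd2 and Sfrp1), and a median of -0.04. The call of Ccnd2 (-0.45, adjusted p = 0.0276) was lost in 5 of the 8 fits with a library left out and that of Sfrp1 (-0.46, adjusted p = 0.0443) in 6 of the 8, and without control 4 the log2 fold change of Sfrp1 was -0.25. Among the ventral homeobox factors, Nkx6-1 had 5.26, 6.08, 5.16 and 3.04 CPM in controls and 7.28, 7.93, 10.4 and 11.1 CPM in the KO libraries. It was higher in every KO library (log2 fold change 0.91 with an SE of 0.20, edgeR adjusted p = 0.00379). Nkx6-2 rose from 1.05 ± 0.305 to 2.91 ± 0.905 CPM (1.48, SE 0.30). Nkx2-2 rose from 34.2 ± 3.75 to 44.4 ± 4.43 CPM (0.38, adjusted p = 0.0174); its call was lost without control 2, control 3, KO 3 or KO 4 (0.37, 0.37, 0.32 and 0.34, with adjusted p = 0.0512, 0.0525, 0.0571 and 0.068).

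Nkx2-1, of the ventral forebrain, fell from 1.38 ± 0.391 to 0.44 ± 0.366 CPM on 95 and 30 counts (-1.70, edgeR adjusted p = 0.0201). The call of Nkx2-1 was lost without control 1, KO 1 or KO 4 (-1.49, -1.43 and -1.39, with adjusted p = 0.0673, 0.064 and 0.074). Olig2, the factor of motor neuron and oligodendrocyte progenitors, had 1380 ± 64.4 CPM in controls and 1206 ± 85.6 CPM in the KO libraries and did not pass (-0.19, adjusted p = 0.102). It did pass with DESeq2 (-0.21, adjusted p = 0.0407), upper-quartile scaling (-0.23, adjusted p = 0.0372) and limma voom (-0.18, adjusted p = 0.0397).

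The targets tied to cell division also moved both ways. Ccnd1, a G1 cyclin, had 1023, 868.4, 985.7 and 666.7 CPM in controls and 448.5, 425.2, 401.5 and 348.6 CPM in the KO libraries. All KO libraries were below all controls (log2 fold change -1.13 with an SE of 0.13, edgeR adjusted p = 1.62e-05). Foxm1, a mitotic transcription factor, fell by 0.57 on the log2 scale (SE 0.09, adjusted p = 0.000337). Mycn, a driver of progenitor division, rose from 0.983 ± 0.238 to 3.16 ± 0.859 CPM (1.70, SE 0.28, adjusted p = 0.000426), on 66 and 241 counts.

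Genes of the dorsal and intermediate neural tube, known to be repressed by Hedgehog signalling, were 3 higher and 2 lower among 7 tested, with a median of 0.51. Dbx2 had 107 to 180 CPM in controls and 267 to 331 CPM in the KO libraries (log2 fold change 1.01 with an SE of 0.14, edgeR adjusted p = 6.86e-05). Irx3 rose from 1.75 ± 0.204 to 4.99 ± 1.18 CPM (1.52, SE 0.21) and Pax6 from 22.7 ± 3.73 to 32.3 ± 3.52 CPM (0.50, SE 0.13). Pax7 fell from 57 counts in all controls to 20 in all KO libraries (-1.57, adjusted p = 0.0229) and Gsx1 from 97 to 45 counts (-1.21, adjusted p = 0.0238). Both calls rest on few counts: that of Pax7 was lost without control 2, control 4, KO 1 or KO 4 (adjusted p between 0.0516 and 0.0823), and that of Gsx1 without control 1, control 3, KO 1 or KO 4 (-1.16, -1.16, -1.19 and -1.09). With no filter on low counts Pax7 had an adjusted p of 0.105.

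**Figure D4:**
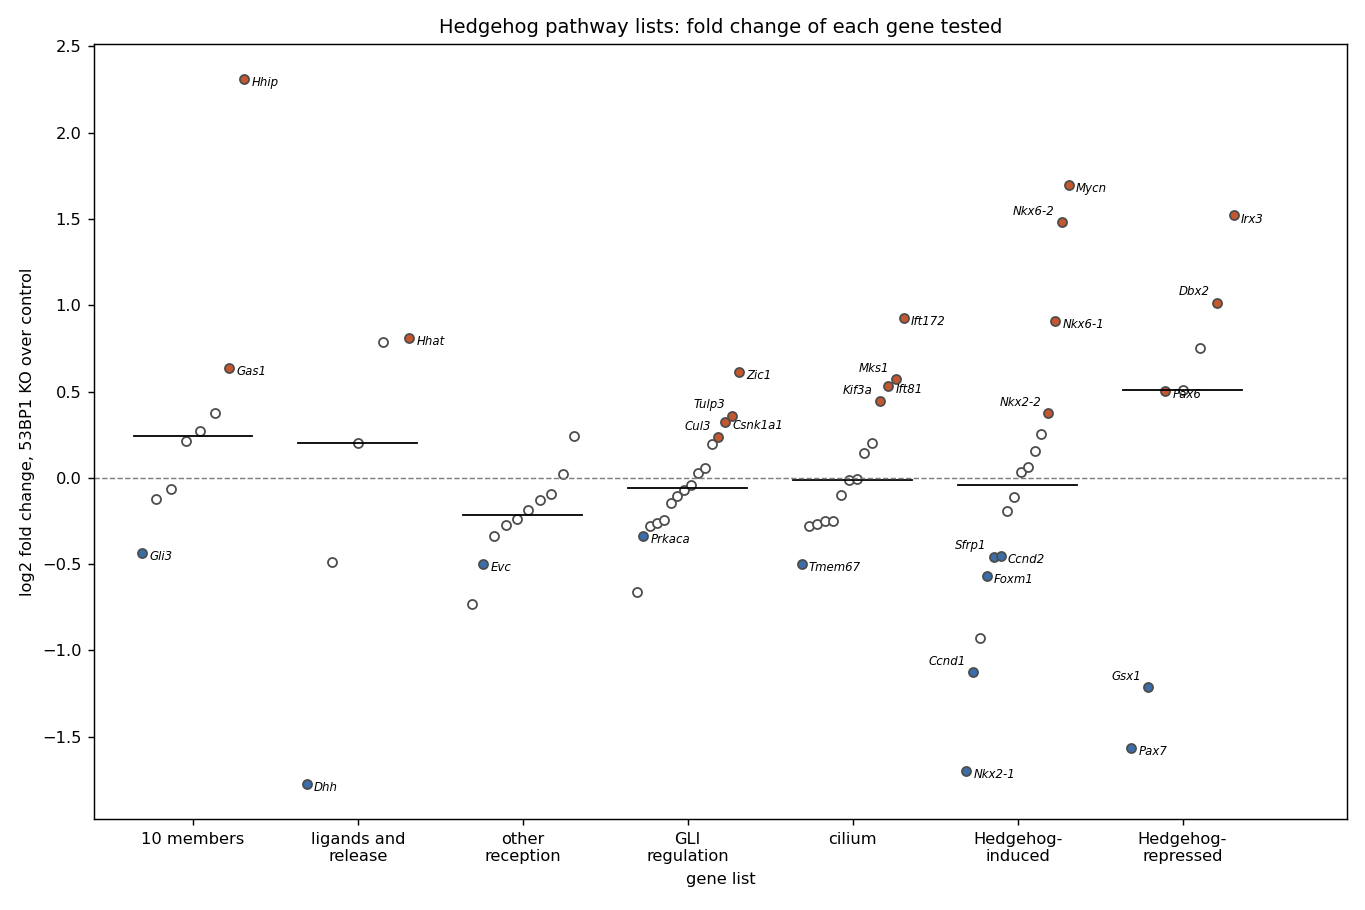
Log2 fold change (y axis, KO over control) of every gene tested in the 10 members and in 6 lists of other pathway genes; filled points passed an adjusted p of 0.05 (orange higher, blue lower), open points did not, and the black bar is the list's median. The induced and the repressed list each hold genes on both sides of 0, and Hhip lies above every other gene shown.

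Markers of other cells moved in the same libraries. Astrocyte markers were higher for 7 of 8 tested, and their summed level was between 287.5 and 417.3 CPM across controls and from 1039 to 1193 CPM in the KO libraries. Gfap rose from 7.40 ± 3.14 to 70.6 ± 11.7 CPM (SD, n = 4). Mesenchymal markers were lower for 7 of 10 tested and higher for 1, Twist1, with a summed level of 90.6 to 141.7 CPM in controls and 49.6 to 56.8 CPM in the KO libraries; none of the 12 was at 0 in every library. All 8 proliferation genes of the list were lower, with Ccne2 at -2.15 (SE 0.18). Oligodendrocyte lineage markers summed to between 2776 and 3107 CPM across controls and from 2701 to 3164 CPM in the KO libraries, with 3 of 8 higher and 2 lower. Endothelial (2 of 4 tested lower), muscle (2 of 4 lower) and microglial and blood markers (0 of 1 called, with Hba-a1 and Hba-a2 at 0) summed to at most 17.2, 48.9 and 5.37 CPM in any library. The 10 neuron markers had 2 higher and 3 lower, and the 10 radial glia markers 5 higher and 3 lower. The part of these cell types in the levels of the Hedgehog genes was not tested.

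Over the 8 libraries, the genes whose log2 CPM followed that of Ptch1 most closely, among 9870 with a mean of at least 5.0 CPM, were the Notch receptor gene Notch2 (Pearson r = 0.98), Fam193a (0.97) and Tbc1d10a (0.97). For Hhip, a query added after its values had been seen, they were the aminotransferase gene Gpt2 (r = 0.995), Ezr (0.995), which encodes the membrane linker ezrin, and Cfap54 (0.993), a gene of motile cilia. These points share the difference between the groups and the depth of the libraries, and the genes were picked as the highest of many. Gli1 was too sparse for such a comparison.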

How the data were processed

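RNA of 8 libraries was sequenced as paired ends from a stranded total RNA kit, per the labels' protocols. The authors deposited whole-number read counts per gene, 1 column per library. CASAVA, HTSeq 0.6.1p1, mm9 and NCBIM37 are listed in the submitters' processing notes; the sources used here do not state the aligner, the gene annotation or whether counting used strand. In GENCODE M21 the exons of 5 members (Shh, Gli1, Gli3, Hhip and Gas1) overlap a gene on the opposite strand, whose reads cannot be told apart if strand was not used; of these partners Gm26894, Arhgap9 and Gm6556 were in the table, with at most 14 counts in any library.

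Low-count genes were removed with filterByExpr, libraries were normalised by TMM, and the test was that of edgeR 4.0.16 (quasi-likelihood, R 4.3.3) over all 15021 genes kept, called at a Benjamini-Hochberg adjusted p under 0.05. The SE is the log2 fold change divided by the square root of F. Ratios used counts plus 0.5 and an exact permutation test. On simulated counts for this comparison (14714 genes) the fit recovered 46.9% of genes changed 1.5-fold and 82.1% of those changed 2.0-fold, and 6.06% of its calls were false. Only 98 and 95 genes were changed by these folds in the simulation, whereas 30.0% of genes were called in the data. These rates therefore need not hold for the data. DESeq2 1.42.0 and limma 3.58.1 (voom with quality weights, which count a deviating library less) were alternatives.

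The members and the lists were chosen with earlier results of these data known. Named genes are all members, up to 4 called genes per other pathway list and 2 per marker list by size of change, the 3 genes most like Ptch1, and Trp53bp1, Kdm6a, Xist and Ddx3y as checks; not all marker genes are printed, and results for some genes of the lists are not reported here. Cdon, Evc2, Lrp2, Ihh, Foxa2, Fabp7, Ntn1, Twist1, Cul3, Prkacb, Prkar1a, Ccnd2, Sfrp1, Kif3a, Ift88, Ift122, Ift52, Nkx6-1, Nkx2-2, Olig2, Foxm1, Pax6 and the genes most like Hhip stand outside that rule and were chosen after their values were seen. Foxf1a was read as Foxf1; Disp1 and Hbb-b1 were not matched by symbol.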

Additional observations from a re-analysis of the deposited data

Results flagged for a closer look

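Control 4 and KO 4 gave single values far from the other 3 libraries of their group, by Dixon's test at the 95% level, in 4 of 58 groups of 4 libraries checked. Chance flags about 1 group in 20. In KO 4 Gli2 had 6.33 CPM, where the other KO libraries had between 4.00 and 4.23, and Mycn had 4.44 CPM against 2.65 to 2.79. In control 4 Boc had 4.85 CPM against 3.61 to 3.78 in the other controls, and Zic1 had 10.2 CPM against 21.4 to 22.3.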

How the results depend on the processing

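The calls of Hhip, Gas1 and Gli3 held under all 18 alternatives run: DESeq2, upper-quartile or RLE factors, no filter or a mean of at least 1 CPM, robust dispersion, voom, a replicate block, the 5 most abundant RNAs or the X and Y genes left out, and each library left out in turn. Their log2 fold changes ran from 2.15 to 2.64, from 0.54 to 0.72 and from -0.47 to -0.36. Members called higher numbered 4 with voom and its quality weights, which added Ptch1 and Gli2. That fit called more of all 15021 genes too, 3127 higher and 2974 lower, against 2412 and 2087 in the main fit. Members called higher numbered between 2 and 3 with a library left out, and members called lower were always 1. Sufu, not called, changed sign with no filter on low counts (0.0039) and without control 2 (0.036); with each library left out in turn it ran from -0.18 to 0.036. Of the 144 values of the 8 members, 137 kept direction and call, 5 gained a call, 2 reversed and 0 lost a call. With each library left out in turn, other pathway genes called higher numbered 11 to 15 and called lower 5 to 10. Over all genes tested, higher calls numbered 1753 to 2432 and lower calls 1497 to 2193 in these fits. The log2 ratio of Gli1 to Gli3 ran from -0.49 to 0.18, that of Gli2 to Gli3 from 0.65 to 0.87 and that of Ptch1 to Smo from 0.28 to 0.51; these are given as values with no test. To look for pairing, the mean of its group was taken from the log2 CPM of each gene in each library. These deviations, not the levels themselves, correlated between same-numbered libraries at 0.20, 0.23, -0.18 and 0.03 for replicates 1 to 4. The values of replicates 1 and 2 were the highest of all pairs of a control and a KO library. Whether replicate numbers pair the libraries is not settled by these values. With the replicate block 2 members were higher and 1 lower, and other pathway genes 15 higher and 9 lower. The difference in the log2 ratio of Gli2 to Gli3, 0.79, is the same with pairing by construction. Its exact sign-flip p was 0.125, the smallest that 4 pairs can give. With no filter 30508 genes were fitted, many of low count, and their median log2 fold change was -0.13. The 8 members tested each moved upward instead: Ptch1 went from 0.27 to 0.34, Smo from -0.12 to -0.06 and Gli3 from -0.44 to -0.37. In that fit the SE was 0.108 for Smo and 0.111 for Lrp2, so its calls take little account of each gene's own spread. The causes of these changes were not tested. At 3 counts for 0.126 to 0.261 CPM, depth limits Shh and Gli1.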
